A study of Mus musculus with 2 samples.

Results

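The nuclear genes of the mitochondrial respiratory chain were examined complex by complex in pancreatic islet preparations of mice. Members were all protein-coding genes of the count table whose symbol begins with Nduf, Uqc or Atp5, the succinate dehydrogenase genes Sdha to Sdhd, the cytochrome c oxidase genes named Cox4 to Cox8 with a letter after the digit, Cyc1 and Cycs. The rule used names only and found 96 of 44713 genes, of which 84 encode subunits or cytochrome c and 12 encode assembly or related factors that share the names. The db/db library came from mice labelled Lepr-/- on the C57BL/6 background. Such mice carry a defect of leptin receptor signalling in every tissue and become obese and diabetic. The db/m library came from mice of the same background labelled wild type. Per the labels, collagenase freed the islets, a density gradient enriched them, and total RNA was depleted of ribosomal RNA. There was 1 library per group. The sources used here name no age, treatment or number of animals behind a library. Without replicates there is no p-value, and each ratio of db/db over db/m carries a 95% interval for counting error alone, which compares these libraries and not the genotypes.

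In the respiratory chain, complex I takes electrons from NADH and complex II takes them from succinate, and both pass them through ubiquinone to complex III. Cytochrome c carries them on to complex IV, where oxygen is reduced, and complex V, the ATP synthase, uses the proton gradient that complexes I, III and IV build up. Subunits of complexes I, III, IV and V come from both the nuclear and the mitochondrial genome, whereas complex II is entirely nuclear. In beta cells, ATP made by this chain links glucose metabolism to the closure of potassium channels and insulin release, and acinar cells use it for enzyme synthesis and secretion.

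The libraries held 18233695 counts for db/db and 16271129 counts for db/m. Markers of acinar cells, which make digestive enzymes, dominated the libraries labelled as islet cells: 10 such markers took 50.1% of counts in db/db and 52.2% in db/m, and 12 islet endocrine markers took 0.22% in db/db and 0.16% in db/m. After scaling, the summed acinar markers stood at 0.851 (0.85 to 0.852) in db/db over db/m and the summed endocrine markers at 1.22 (1.2 to 1.24). The endocrine markers did not move together, since 6 of 12 were at least 2-fold higher and 1 was lower. The insulin gene Ins2, which holds most of the sum, was at 1081 CPM in db/db and 1029 CPM in db/m, and Ins1 was at 135 CPM in db/db and 285 CPM in db/m. Glucagon (Gcg) was at a ratio of 3.99 (3.68 to 4.32), pancreatic polypeptide (Ppy) at 6.44 (5.25 to 7.98) and somatostatin (Sst) at 8.79 (6.81 to 11.5). Of the 10 acinar markers 0 were higher and 1 was lower at 2-fold. In the wider list of 36 acinar genes left out in an alternative scaling 3 were higher and 7 lower, with the trypsinogen genes Prss1 and Prss3, whose family has close copies that make values uncertain, at 10.4 (9.98 to 10.9) and 12.1 (11.6 to 12.7). The part of these shifts in the ratios below was not tested. In such bulk RNA, fewer cells of a type and less RNA per cell cannot be told apart. The members, most of which are broadly expressed genes, took 25240 counts in db/db (0.138% of all, with a Clopper-Pearson interval of 0.1367% to 0.1401%) and 19733 counts in db/m (0.121%, 0.1196% to 0.1230%).

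With the main scaling, the summed level of all members did not differ between the libraries beyond counting error, but under other scalings it did. CPM, the counts of a gene per library of a fixed size, were scaled by TMM, a trimmed mean of the log ratios of all genes. They summed to 1303 CPM over the members in db/db and 1289 CPM in db/m, a ratio of 1.01 (0.992 to 1.03). The sum was 1 (0.986 to 1.02) with DESeq2 size factors, 1.14 (1.12 to 1.16) with total counts and 1.07 (1.05 to 1.09) with total counts without acinar and hormone genes. Of the 96 members, 78 had a mean of at least 1 CPM and were compared singly. Their median log2 ratio was -0.02, with the middle 50% between -0.25 and 0.25, beside 0.02 over all 10300 genes compared. Only Ndufb6 was at least 2-fold higher with an interval excluding 1, and 0 members were at least 2-fold lower. That is 1.28% of the compared members, where 3.83% of all genes compared were called higher and 4.04% lower by this rule, 7.87% in all. Among 8598 other protein-coding genes in the same range of counts (55 to 4725 over both libraries), 5.75% were called in either direction, and the spread of the middle 50% was 0.51 on the log2 scale, against 0.50 for the members.

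**Figure D1:**
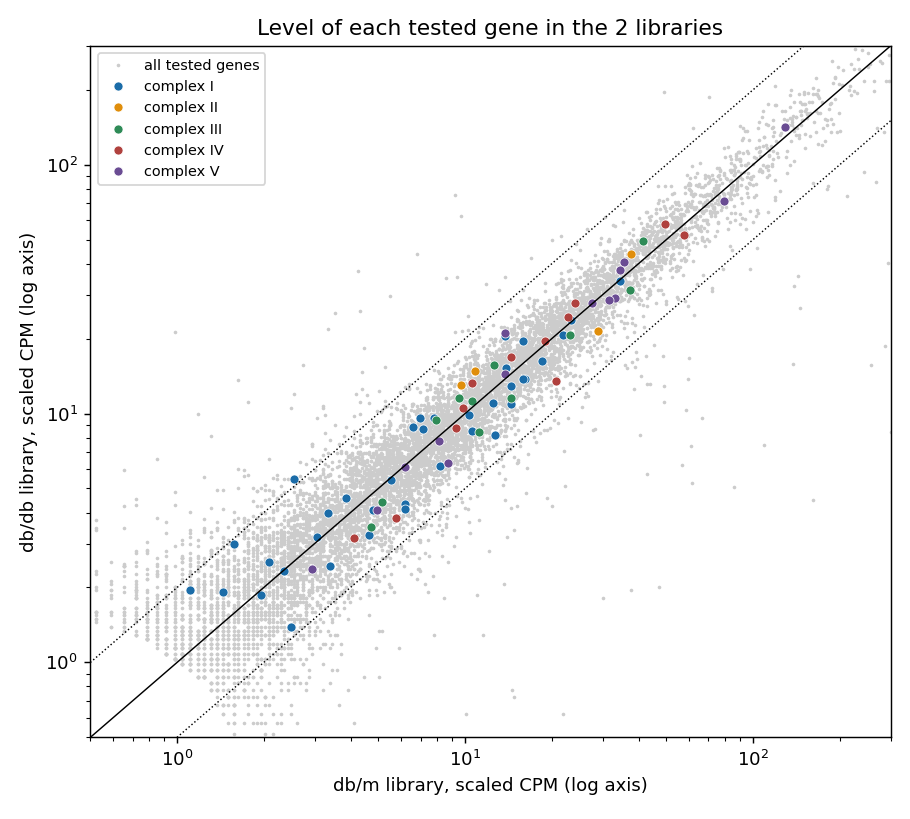
Scaled CPM of every tested gene in the db/db library (vertical, log axis) against the db/m library (horizontal, log axis), with the members coloured by complex, the solid line at equality and dotted lines at 2-fold. The members follow the line of equality, and only Ndufb6 of complex I lies beyond the upper dotted line.

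With the main scaling, smaller differences lay in both directions. At 1.5-fold, 3 members were higher in db/db (Ndufb6, Ndufc1 and Atp5g1) and 5 were lower (Ndufa12, Ndufa7, Ndufb10, Cox6c and Cox7c), together 10.3% of the members compared. Of all genes 8.63% were higher and 8.87% lower at 1.5-fold, together 17.5%. Judged by the interval alone at any fold, 17 members were above 1 and 17 below 1, 21.8% in each direction, where 20.7% of all genes were above and 18.2% below. In either direction this was 43.6% of the members and 38.9% of all genes, so the members' share is near the background. This split depended on the scaling. With total counts, which raise every log2 ratio by 0.175, 26 members were above 1 and 3 below (89.7% of these above), and over all genes the share above moved to 78.1% with total counts, against 53.3% with TMM. Under all 4 scalings tried, 16 members kept an interval above 1 and 3 kept one below 1, the last being Cox6c, Ndufa7 and Sdhb. The log2 shift against TMM was -0.008 with DESeq2 size factors, 0.079 without acinar and hormone genes and 0.175 with total counts. An interval above 1 is thus easier to keep than one below 1, and the split of 16 and 3 reflects this choice of scalings. No share of all genes under this rule is given.

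**Figure D2:**
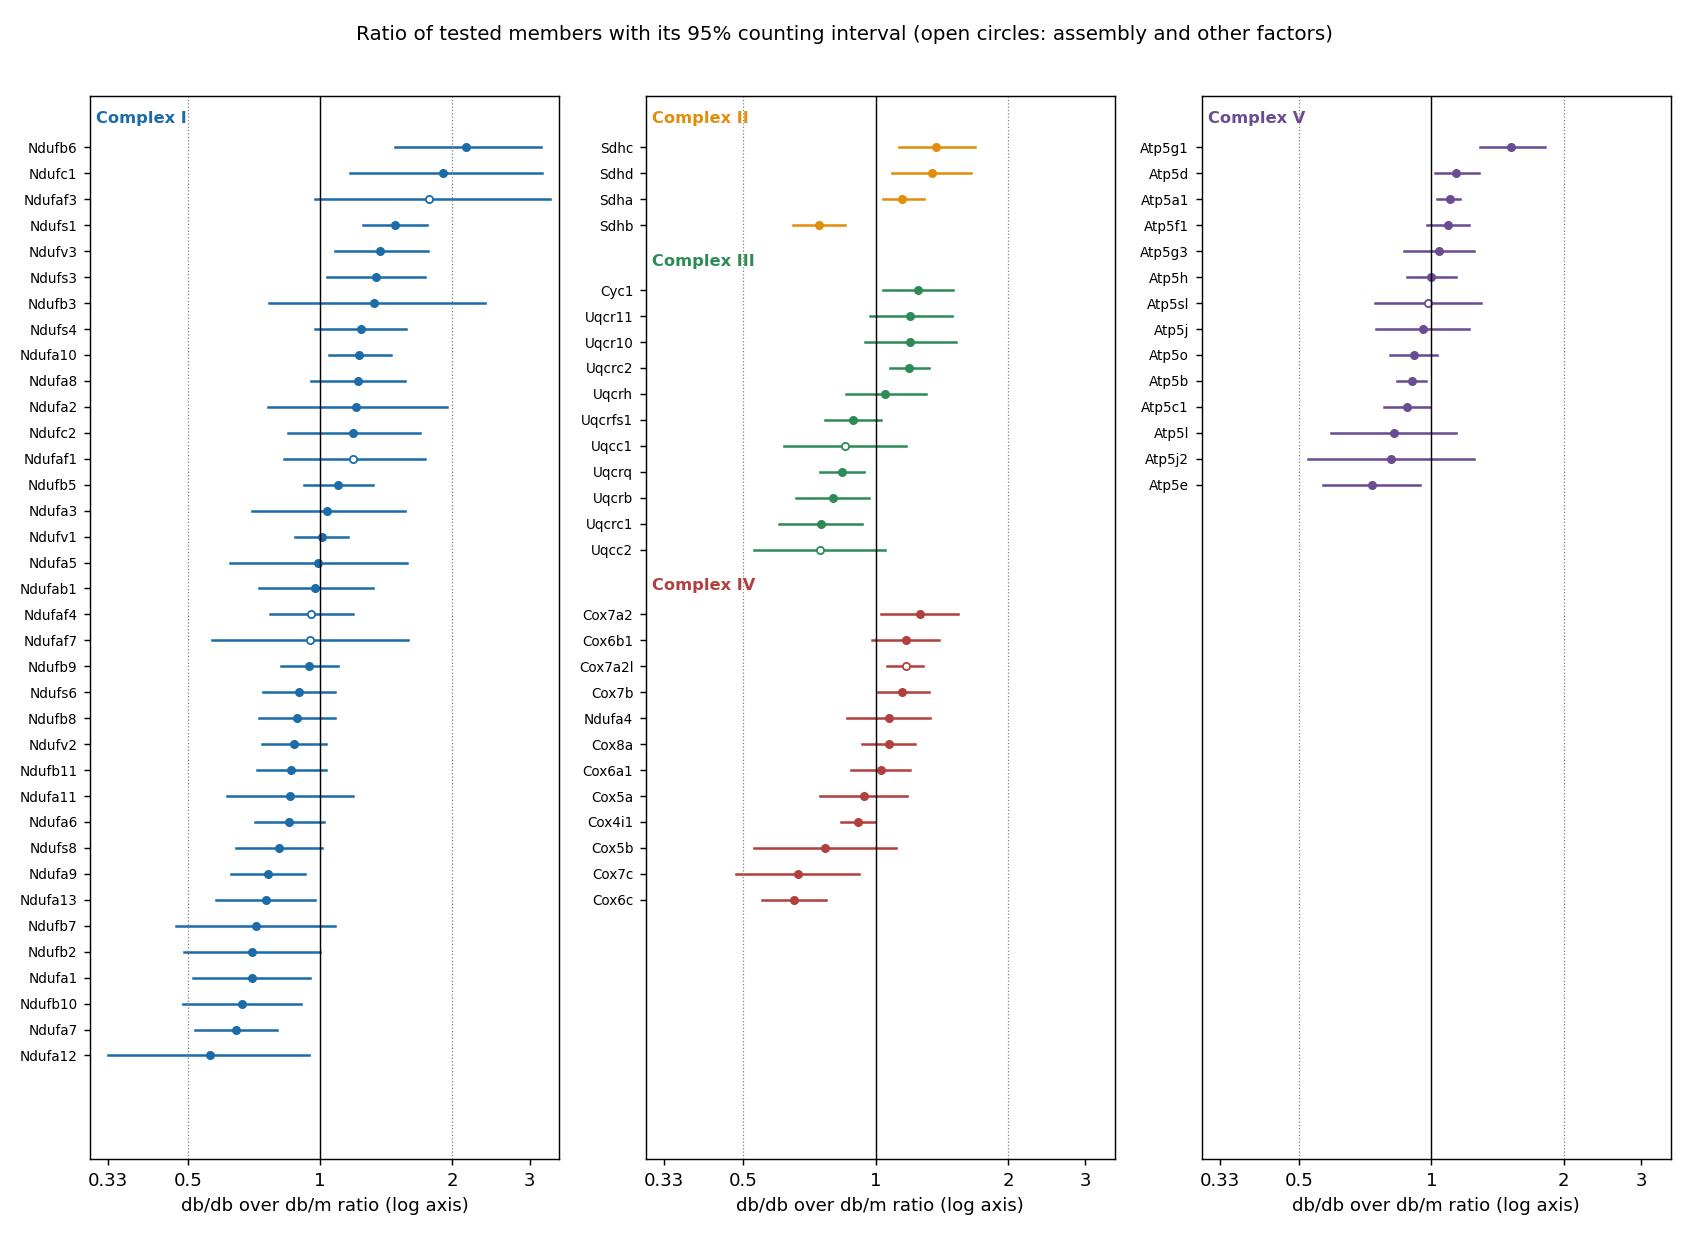
Ratio of db/db over db/m (points, log axis) with its 95% counting interval (bars) for 77 of the 78 tested members, by complex, with dotted lines at 2-fold. Ratios run from 0.562 for Ndufa12 to 2.15 for Ndufb6, and in each complex members lie on both sides of 1.

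The other 18 members were below 1 CPM on average and are accounted for here by count. Ndufs7, a core iron-sulfur subunit of complex I (chromosome 10, 80249105 to 80256794 in GRCm38), and the restricted isoforms Cox4i2, Cox7a1, Cox8c and Ndufa4l2 had 0 counts in both libraries, which allows up to 3 counts or 0.155 CPM in db/db and 0.196 CPM in db/m. Cox6b2, Cox7b2, Cox8b and Atp5k had 3 or fewer counts in both. Between these and the limit were Ndufs5, Ndufaf2, Ndufaf5, Ndufaf6, Ndufb4, Atp5g2, Atp5s, Cox6a2 and Cycs. Just below the limit lay Ndufaf5 with 13 counts in db/db and 12 in db/m, and just above it lay Ndufaf3 with 38 counts in db/db and 17 in db/m. Ndufs7, Ndufs5, Atp5k and Cycs encode parts that every respiring cell uses. The treatment of reads matching more than one place is unknown from the sources used here, so the low values of these genes, several of which have processed copies in the genome, are uncertain.

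Complex I, the largest, had 43 members by function, and its summed level was 340 CPM in db/db and 344 CPM in db/m, a ratio of 0.989 (0.953 to 1.03). Of the 37 members compared, 16 had ratios above 1 and 21 below, with a median log2 ratio of -0.03. By the interval alone 6 were above 1, 7 below and 24 included it, where 20.7% of all genes compared were above and 18.2% below. Ndufb6, an accessory subunit of the membrane arm (chromosome 4, 40270591 to 40279421), had 106 counts in db/db and 39 in db/m, or 5.47 CPM in db/db and 2.55 CPM in db/m, a ratio of 2.15 (1.48 to 3.19). Ndufc1, another small membrane arm subunit (chromosome 3, 51405479 to 51408955), had 58 counts in db/db and 24 in db/m, a ratio of 1.91 (1.17 to 3.21). Both are low genes, so their intervals are wide, and with total counts Ndufc1 also passed 2-fold. Ndufb4, also of the membrane arm, had 20 counts in db/db and 4 in db/m (ratio 3.95, 1.32 to 15.9) and was under the limit on low counts.

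The core subunits of complex I, among which are the carriers of its flavin and iron-sulfur clusters, summed to a ratio of 1.04 (0.975 to 1.11), and the accessory subunits to 0.959 (0.916 to 1). Ndufs1, the largest core subunit with several iron-sulfur clusters (chromosome 1, 63143592 to 63176822), stood at 20.4 CPM in db/db and 13.8 CPM in db/m, a ratio of 1.48 (1.25 to 1.75). Ndufs3, a core subunit next to the ubiquinone site, stood at 8.83 CPM in db/db and 6.6 CPM in db/m (1.34, 1.04 to 1.73). Ndufv1, Ndufv2 and Ndufs8 had intervals that include 1. Ndufv1, which binds NADH and flavin, was at 23.7 CPM in db/db and 23.4 CPM in db/m (1.01, 0.878 to 1.16). Its partner Ndufv2 was at 16.2 CPM in db/db and 18.5 CPM in db/m (0.871, 0.739 to 1.03). The cluster subunit Ndufs8 was at 8.52 CPM in db/db and 10.6 CPM in db/m (0.805, 0.644 to 1.01).

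By module, the NADH-oxidising N module (10 members) had a summed ratio of 0.998 (0.938 to 1.06), the ubiquinone-reducing Q module (6 members) 0.947 (0.872 to 1.03) and the membrane arm (20 members) 0.994 (0.938 to 1.05). Within the N module members stood apart in both directions. The accessory subunit Ndufa7 (chromosome 17, 33824572 to 33838316) was at 8.21 CPM in db/db and 12.7 CPM in db/m, 1.55-fold lower (1.25 to 1.93). Ndufa12, an accessory subunit added late in assembly, had 27 counts in db/db and 38 in db/m, 1.78-fold lower (1.06 to 3.03). Ndufv3 of the same module was at 9.6 CPM in db/db and 6.99 CPM in db/m, a ratio of 1.37 (1.08 to 1.76). In the membrane arm, Ndufb10 (chromosome 17, 24722060 to 24724423) was at 4.13 CPM in db/db and 6.2 CPM in db/m, 1.5-fold lower (ratio 0.666, 0.488 to 0.906). Ndufa10 had an interval above 1 (1.23, 1.05 to 1.45), while Ndufa1, Ndufa13 and Ndufb2 of the membrane arm and Ndufa9 beside the ubiquinone site had ratios of 0.699, 0.752, 0.701 and 0.762 with intervals below 1. The complex I assembly factors Ndufaf1 to Ndufaf7 summed to 1.04 (0.892 to 1.22), and the 4 that were compared had intervals that include 1.

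Complex II, which oxidises succinate in the citric acid cycle, had 4 members, and the interval of each excluded 1, with 3 above and 1 below. At any fold, 38.9% of all genes compared had an interval excluding 1, and intervals narrow as counts rise. Sdha, the flavoprotein that oxidises succinate (chromosome 13, 74322255 to 74350240), was at 43.6 CPM in db/db and 37.7 CPM in db/m, a ratio of 1.15 (1.04 to 1.29). The membrane anchor genes Sdhc and Sdhd (chromosomes 1 and 9), which hold heme and bind ubiquinone, had ratios of 1.37 (1.13 to 1.68) and 1.34 (1.09 to 1.65), with Sdhc at 14.8 CPM in db/db and 10.8 CPM in db/m and Sdhd at 13 CPM in db/db and 9.67 CPM in db/m. Sdhb, the iron-sulfur subunit that binds Sdha (chromosome 4, 140961271 to 140979198), was at 21.4 CPM in db/db and 28.9 CPM in db/m, a ratio of 0.742 (0.647 to 0.85). The direction of Sdha, Sdhc, Sdhd and Sdhb and the exclusion of 1 held under all 4 scalings. The alternatives move ratios mostly upward, so this is a weak check for the 3 genes above 1. The sum of the complex was at 1.07 (0.992 to 1.14) with the main scaling and 1.06 (0.986 to 1.14) with DESeq2 size factors, while with total counts it was 1.2 (1.12 to 1.29) and without acinar and hormone genes 1.13 (1.05 to 1.21).

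A comparison of partner subunits within a library needs no scaling, since it sets the counts of a gene against those of its partner in the same library. The pairs were chosen after their values were seen, so how many of them differ is no result. There were 0.492 Sdhb counts per Sdha count in db/db and 0.765 in db/m, a ratio of 0.643 (0.54 to 0.766). Sdhc and Sdhd kept their proportion, with 1.14 Sdhc counts per Sdhd count in db/db and 1.11 in db/m (1.03, 0.768 to 1.37). The complex I pair of Ndufv1 over Ndufv2 stood at 1.16 (0.933 to 1.44), and Ndufs1 over Ndufv1 at 1.46 (1.17 to 1.83).

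Complex III, the cytochrome bc1 complex, had 11 members, all compared, and a summed ratio of 0.994 (0.945 to 1.05). There were 2 intervals above 1, 3 below and 6 that include 1, beside 20.7% above and 18.2% below over all genes compared. The core proteins, which shape its matrix side, pointed in opposite directions. Uqcrc2 was at 49.3 CPM in db/db and 41.3 CPM in db/m (1.19, 1.08 to 1.32), whereas Uqcrc1 was at 8.41 CPM in db/db and 11.2 CPM in db/m (0.749, 0.601 to 0.933), and Uqcrc1 per Uqcrc2 stood at 0.627 (0.492 to 0.801) in db/db over db/m. Of the electron-carrying subunits, Cyc1, cytochrome c1, was at 15.7 CPM in db/db and 12.6 CPM in db/m (1.25, 1.04 to 1.5), and the Rieske iron-sulfur protein Uqcrfs1 was at 20.6 CPM in db/db and 23.2 CPM in db/m (0.888, 0.768 to 1.03). Among the 5 small subunits, Uqcrb (0.798, 0.659 to 0.965) and Uqcrq (0.839, 0.747 to 0.942) had intervals below 1, and Uqcr10, Uqcr11 and Uqcrh had intervals that include 1. The assembly factors Uqcc1 and Uqcc2 together stood at 0.801 (0.635 to 1.01). Without Uqcrc2, the member with most counts, the sum of complex III was at 0.933 (0.88 to 0.989). Cycs, the somatic cytochrome c gene, had 8 counts in db/db and 15 in db/m (0.422, 0.155 to 1.06), which leaves a difference undetectable at this depth.

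Complex IV, cytochrome c oxidase, had 20 members, with Ndufa4 and Ndufa4l2 placed here because the Ndufa4 protein is now known as a subunit of this complex. The summed ratio was 1.02 (0.975 to 1.06). Cox4i1, the regulatory subunit that binds ATP, was at 52.3 CPM in db/db and 57.4 CPM in db/m (0.912, 0.832 to 0.999). Cox6c (chromosome 15, 35931976 to 35938246) was at 13.5 CPM in db/db and 20.7 CPM in db/m, 1.53-fold lower (ratio 0.653, 0.552 to 0.772). Cox7c, another small transmembrane subunit (chromosome 13, 86044798 to 86046795), was at 3.82 CPM in db/db and 5.75 CPM in db/m, 1.5-fold lower (ratio 0.665, 0.481 to 0.916). Cox7a2 was at 13.3 CPM in db/db and 10.6 CPM in db/m (1.26, 1.03 to 1.54) and Cox7b at 27.7 CPM in db/db and 24.1 CPM in db/m (1.15, 1.01 to 1.32). Cox7a2l, classed here as an assembly factor of supercomplexes, was at 57.9 CPM in db/db and 49.6 CPM in db/m (1.17, 1.06 to 1.28). Cox5a and Cox5b, Cox6a1, Cox6b1, Cox8a and Ndufa4 had intervals that include 1, at ratios of 0.941, 0.765, 1.03, 1.17, 1.07 and 1.07. The set therefore spread on both sides of 1 with 0 members past 2-fold, where 3.83% of all genes compared were called higher and 4.04% lower.

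Isoforms of complex IV that are known from heart, skeletal muscle, brown fat, testis or hypoxic and perivascular cells were at or near 0 in both libraries. The 8 such genes held 14 counts in db/db and 8 in db/m in all, against 3755 counts in db/db and 3032 in db/m for the 11 widely expressed genes. Cox6a2, the muscle isoform of Cox6a1, had 7 counts in db/db and 8 in db/m, while Cox8b, the muscle and brown fat isoform, had 3 counts in db/db and 0 in db/m. The 6 striated muscle markers summed to 2 counts in db/db and 9 in db/m, and Ucp1, the brown fat uncoupling protein, had 0 counts in both. The 6 pericyte and stellate markers summed to 58 counts in db/db and 78 in db/m, a ratio of 0.588 (0.411 to 0.836). Of these, Higd1b was at 0 counts in both libraries, Acta2 had 14 counts in db/db and 31 in db/m (0.357, 0.175 to 0.691), Cspg4 had 1 in db/db and 10 in db/m, Pdgfrb had 20 in db/db and 10 in db/m, Rgs5 had 16 in db/db and 18 in db/m, and Des had 7 in db/db and 9 in db/m. Counts were not divided by transcript length, so the isoforms are set side by side by detection and not by level.

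Complex V, the ATP synthase, had 17 members by name, of which Atp5s and Atp5sl are no subunits. Its summed level was 440 CPM in db/db and 430 CPM in db/m, a ratio of 1.02 (0.99 to 1.06). Where 38.9% of all genes compared had an interval excluding 1 at any fold, all 5 genes of the catalytic F1 head did. All 5 were within 1.5-fold, and the head had a sum of 1.01 (0.972 to 1.05). The alternating subunits of its hexamer went apart, with Atp5a1 at 142 CPM in db/db and 129 CPM in db/m (1.1, 1.03 to 1.16) and Atp5b, which carries the catalytic sites, at 71.4 CPM in db/db and 79.2 CPM in db/m (0.901, 0.834 to 0.974). In the central stalk, Atp5d (delta) was at 1.14 (1.02 to 1.28), Atp5c1 (gamma) at 0.879 (0.778 to 0.993) and Atp5e (epsilon) at 0.731 (0.567 to 0.941). Under all 4 scalings tried, Atp5a1 and Atp5d kept an interval above 1, whereas Atp5b, Atp5c1 and Atp5e did not keep one below 1. The alternatives move ratios mostly upward, so this contrast follows in part from the choice of scalings. The 4 genes of the peripheral stalk, which holds the head still, were at 0.912 to 1.09 with intervals that all include 1. Among the small membrane subunits, Atp5j2 (0.808, 0.524 to 1.25) and Atp5l (0.822, 0.592 to 1.14) also had intervals that include 1, and so did Atp5sl (0.982, 0.743 to 1.3).

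The c-ring, the rotor that protons turn, is encoded by Atp5g1, Atp5g2 and Atp5g3, whose precursors differ in the import sequence but yield the same mature protein. Atp5g1 (chromosome 11, 96072793 to 96075694) was at 21 CPM in db/db and 13.8 CPM in db/m, a ratio of 1.52 (1.29 to 1.81). Atp5g3 (chromosome 2) was at 14.4 CPM in db/db and 13.8 CPM in db/m (1.04, 0.867 to 1.25), and Atp5g2 (chromosome 15) had 15 counts in db/db and 7 in db/m (1.69, 0.65 to 4.91). Atp5g1 counts per Atp5g3 count were 1.46 in db/db and 0.995 in db/m, a ratio of 1.47 (1.14 to 1.88). The summed c-ring stood at 36.2 CPM in db/db and 28.1 CPM in db/m, a ratio of 1.29 (1.14 to 1.46).

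The partner subunits made in the mitochondrion itself were lower in db/db in each complex that has them. The 7 mitochondrially encoded genes of complex I summed to 293 CPM in db/db and 851 CPM in db/m, a ratio of 0.344 (0.333 to 0.355), beside 0.989 for the nuclear members. The ratio was 0.316 (0.3 to 0.332) for CYTB of complex III, 0.41 (0.402 to 0.418) for the 3 genes of complex IV and 0.458 (0.357 to 0.585) for the 2 genes of complex V, beside 0.994, 1.02 and 1.02 for the nuclear members. All 11 that were compared were at least 2-fold lower, where 4.04% of all genes were, and their ratios ran from 0.174 (0.0967 to 0.298) for ND4L to 0.456 (0.353 to 0.586) for ATP6. The complex IV sum was mostly COX1, with 15004 of 15124 counts in db/db and 28842 of 29146 in db/m. COX2 had 39 counts in db/db and 84 in db/m (0.367, 0.244 to 0.543), and COX3 had 81 in db/db and 220 in db/m (0.291, 0.223 to 0.377). Because nuclear DNA carries copies of mitochondrial genes, the mitochondrial values are uncertain. Adding 0.175 to each log2 ratio, as total counts do, leaves this gap as it is.

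**Figure D3:**
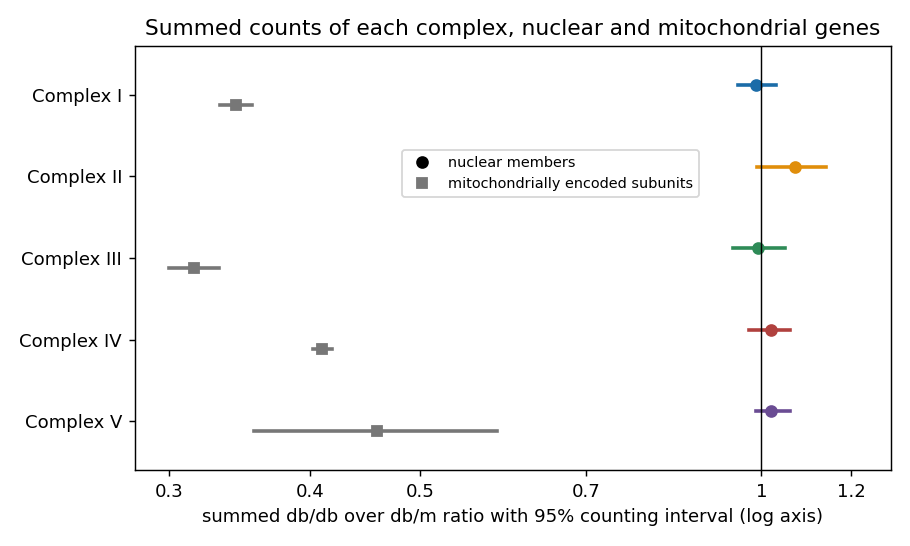
Summed db/db over db/m ratio (log axis) with its 95% counting interval for the nuclear members (circles) and the mitochondrially encoded subunits (squares) of each complex. Nuclear sums lie between 0.989 and 1.07 and mitochondrial sums between 0.316 and 0.458, and complex II has no mitochondrially encoded subunit.

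Other genes of the pathway were taken from lists made with earlier results of these data known. Of 40 assembly factors with other names, 35 were compared, and 1 was at least 2-fold higher, 0 lower and 34 neither, with a median log2 ratio of 0.11. Beside this and the next counts at 2-fold stand the shares of all genes compared, 3.83% higher and 4.04% lower. Atpaf1, a chaperone of the F1 head, had 68 counts in db/db and 23 in db/m (2.34, 1.44 to 3.93), whereas its counterpart Atpaf2 was at 4.59 CPM in db/db and 6.47 CPM in db/m (0.711, 0.528 to 0.956). At 1.5-fold 4 of the 35 were higher and 0 lower, where 8.63% of all genes were higher and 8.87% lower. Beside Atpaf1 these were the complex IV factors Cox11 (1.62, 1.1 to 2.41), Cox15 (1.68, 1.31 to 2.15) and Cox18 (1.76, 1.04 to 3.06). They serve copper delivery, heme a synthesis and membrane insertion. At any fold 8 of the 35 had an interval above 1 and 3 below, where 20.7% of all genes were above and 18.2% below. The 3 were Atpaf2 and the complex IV factors Cox16 (0.706, 0.551 to 0.905) and Surf1 (0.738, 0.566 to 0.962). Of 13 regulators, 12 were compared, and at 2-fold 1 was higher, 0 lower and 11 neither, with a median of -0.11. This was Ppargc1a, the coactivator PGC-1alpha, at 11.2 CPM in db/db and 5.29 CPM in db/m (2.12, 1.63 to 2.77). Its relative Pprc1 was at 45.2 CPM in db/db and 25.1 CPM in db/m (1.8, 1.59 to 2.03) and Ppargc1b at 8.62 CPM in db/db and 11.9 CPM in db/m (0.725, 0.584 to 0.9). Tfam, which packages mitochondrial DNA and takes part in its transcription, was at 3.72 CPM in db/db and 5.42 CPM in db/m (0.686, 0.493 to 0.952). At any fold 4 regulators had an interval above 1 and 4 below, the latter including Yy1 (0.833, 0.721 to 0.963). Nrf1, at 6 counts in db/db and 0 in db/m, was under the limit on low counts. Genes of mitochondrial ribosomal proteins, another nuclear set, had a median of 0.02 over 73 compared, with 1 called higher at 2-fold and 0 lower. At 1.5-fold 6 of the 73 were higher and 0 lower, and at any fold 12 had an interval above 1 and 1 below. The shares of all genes at these rules are those given above for the assembly factors. With the main scaling the summed ratio was 1.06 (1.02 to 1.09) for this set. It was 1.09 (1.03 to 1.14) for the 40 assembly factors and 1.15 (1.08 to 1.22) for the 13 regulators.

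**Figure D4:**
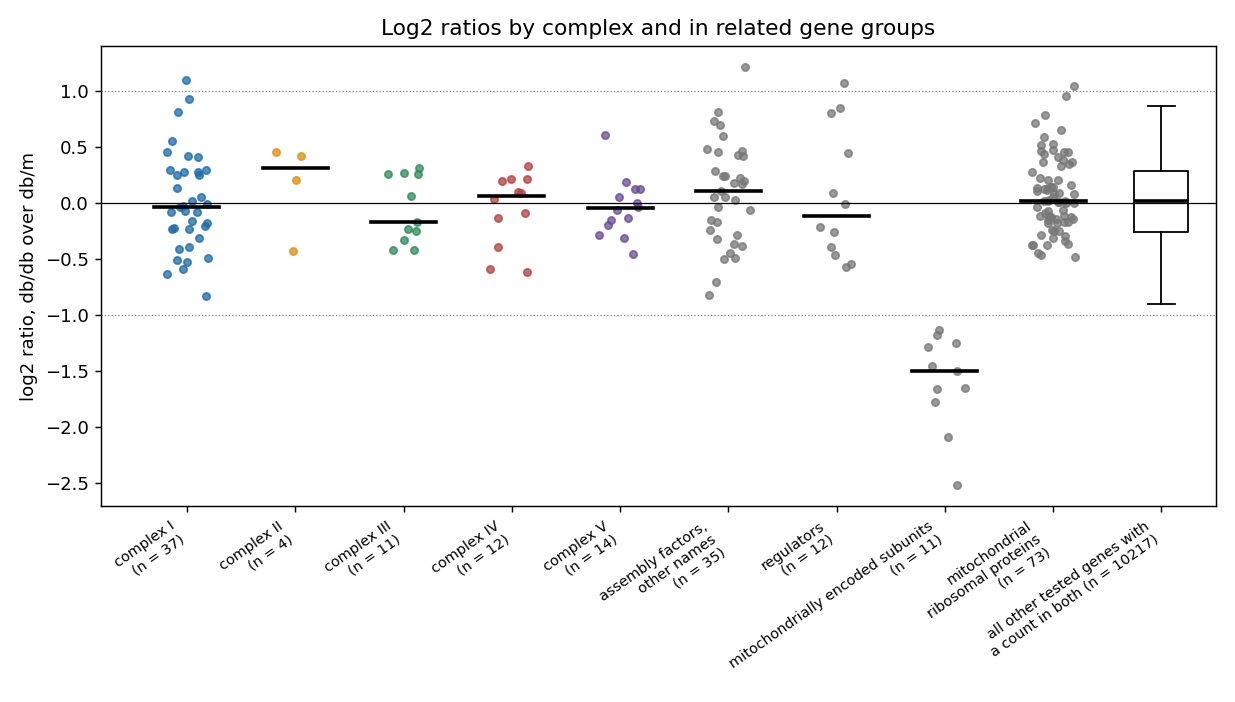
Log2 ratio of db/db over db/m for each tested gene (points) with the median (bar), by complex and in related groups, and as a box with whiskers from the 5th to the 95th percentile for the other genes with a count in both libraries. Medians of the 5 complexes lie between -0.17 and 0.31, and that of the 11 tested mitochondrially encoded genes is -1.50.

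Genes of this kind are known targets of NRF1, the ETS factor GABPA and YY1, so the promoters were searched for their motifs. RefSeq promoters of GRCm38.p6 (250 bases before to 50 after the start) were held for 79 of the 96 members, and a gene with several starts counted once. The letters searched on both strands were GCGCANGCG for NRF1, CCGGAAG for GABPA and AAGATGGCG for YY1. Overlapping matches of the same motif counted as 1 site, and matches of different motifs were free to overlap. The NRF1 letters were in 24 members (30.4%), against 16.7% of 7387 other tested genes and 6.97% of all 26946 other genes. Among the 66 compared members with a promoter they were in 18 (27.3%). The YY1 letters were in 8 members (10.1%; 10.6% of the compared members), against 4.12% of the other tested genes and 1.61% of all others. The GABPA letters were in 17 members (21.5%; 24.2% of the compared members), beside 21.7% of the other tested genes, so their share was near that of expressed genes, and 9.89% of all others. These shares are descriptions and were not tested. Members with and without the NRF1 letters had like log2 ratios between the libraries, with medians of -0.10 (18 tested members) and 0.00 (48 tested members). For the GABPA letters the medians were 0.06 with them (16 tested members) and -0.08 without (50 tested members). For the YY1 letters they were -0.06 (7 tested members) and -0.02 (59 tested members).

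**Figure D5:**
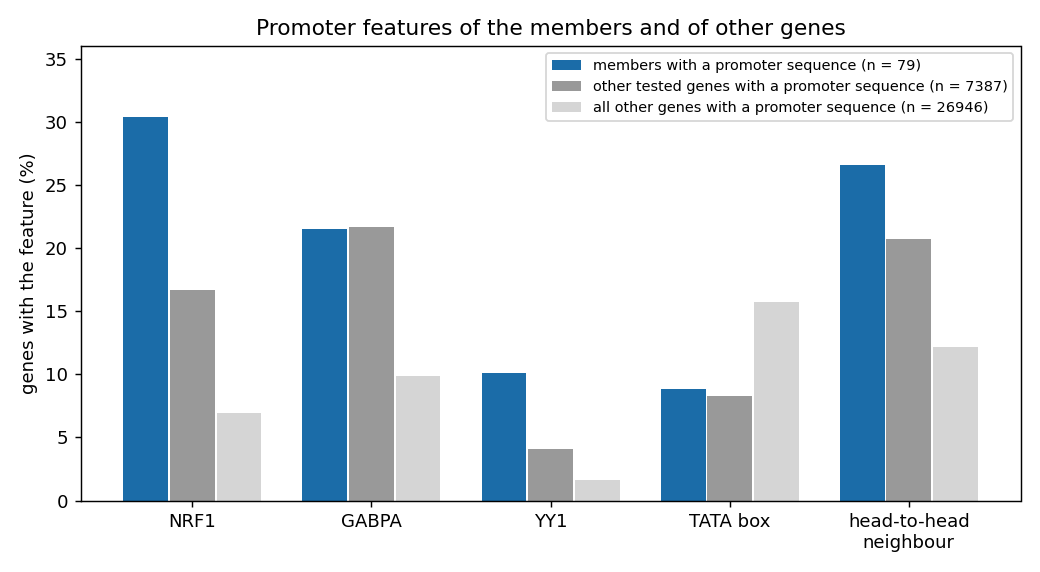
Share of genes (%) whose promoter holds each motif, a TATA box (TATAAA) or a divergent neighbour start within 1000 bases, for the members, the other tested genes and all other genes with a promoter sequence. The members' bar is above both others for NRF1 (30.4%), YY1 (10.1%) and divergent neighbours (26.6%), and level with the other tested genes for GABPA.

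Of the promoters shown here, those of Ndufb6 (chr4:40279372-40279671) and Ndufc1 (chr3:51408906-51409205) belong to the compared members of highest ratio, those of Sdha (chr13:74350191-74350490) and Sdhd (chr9:50603800-50604099) hold NRF1 letters, and that of Atp5j (chr16:84834927-84835226) faces the gene of GABPA. All lie on the minus strand of GRCm38.p6 and read 5′ to 3′ along the gene, with motif letters in capitals.
Ndufb6: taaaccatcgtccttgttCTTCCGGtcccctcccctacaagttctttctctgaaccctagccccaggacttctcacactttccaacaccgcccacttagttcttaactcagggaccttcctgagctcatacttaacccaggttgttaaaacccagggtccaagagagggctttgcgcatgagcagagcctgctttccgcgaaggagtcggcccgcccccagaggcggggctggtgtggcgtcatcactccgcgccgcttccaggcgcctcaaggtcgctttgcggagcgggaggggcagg
Ndufc1: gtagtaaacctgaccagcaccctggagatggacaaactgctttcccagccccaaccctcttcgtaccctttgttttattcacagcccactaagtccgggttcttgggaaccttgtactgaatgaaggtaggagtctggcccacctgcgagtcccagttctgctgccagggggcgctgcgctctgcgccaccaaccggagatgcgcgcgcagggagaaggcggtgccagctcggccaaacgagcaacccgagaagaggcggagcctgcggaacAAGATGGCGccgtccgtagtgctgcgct
Sdha: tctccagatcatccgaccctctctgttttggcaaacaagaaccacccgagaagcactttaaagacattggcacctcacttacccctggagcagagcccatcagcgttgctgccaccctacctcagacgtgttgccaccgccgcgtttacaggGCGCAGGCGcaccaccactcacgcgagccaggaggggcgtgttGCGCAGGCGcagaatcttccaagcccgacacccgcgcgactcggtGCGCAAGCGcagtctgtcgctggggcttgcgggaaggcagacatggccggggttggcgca
Sdhd: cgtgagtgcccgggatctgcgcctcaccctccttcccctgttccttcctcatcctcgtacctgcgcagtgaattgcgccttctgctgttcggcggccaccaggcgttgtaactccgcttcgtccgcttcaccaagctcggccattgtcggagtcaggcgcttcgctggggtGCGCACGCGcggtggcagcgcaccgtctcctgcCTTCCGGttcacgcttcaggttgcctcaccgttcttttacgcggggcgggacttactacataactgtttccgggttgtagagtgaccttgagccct
Atp5j: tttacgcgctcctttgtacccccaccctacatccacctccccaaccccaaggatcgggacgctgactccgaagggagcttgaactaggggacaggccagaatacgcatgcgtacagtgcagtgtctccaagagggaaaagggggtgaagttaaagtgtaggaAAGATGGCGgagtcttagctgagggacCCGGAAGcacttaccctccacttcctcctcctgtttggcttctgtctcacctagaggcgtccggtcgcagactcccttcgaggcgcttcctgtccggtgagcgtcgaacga
The capitals mark 1 GABPA match in Ndufb6, 1 YY1 match just after the start of Ndufc1, 3 NRF1 matches in Sdha, 1 NRF1 and 1 GABPA match in Sdhd, and 1 YY1 and 1 GABPA match in Atp5j. A match is a run of letters and not a shown binding site. Of the 79 members, 21 (26.6%) had the start of another gene on the opposite strand within 1000 bases (25.8% of the compared members), against 20.7% of the other tested genes and 12.2% of all others. Atp5j, coupling factor 6 of the peripheral stalk, has a start 148 bases from Gabpa. Of its annotated starts, the one facing Gabpa was chosen for display. Neither gene differed between the libraries beyond counting error, with Atp5j at 0.956 (0.749 to 1.22) and Gabpa at 0.994 (0.831 to 1.19). Sdhd starts 52 bases from Timm8b, a chaperone of mitochondrial import, which had 42 counts in db/db and 18 in db/m (1.84, 1.04 to 3.4), beside 1.34 for Sdhd. By RefSeq positions 30 of the 96 members overlap another annotated gene, among them Atp5j, which overlaps Gabpa. Whether counting used strand is unknown from the sources used here, so reads of such pairs cannot be told apart.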

How the data were processed

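The authors deposited whole-number counts per gene, 1 column per library, with a gene symbol and class. HISAT2 2.0.4 aligned the reads, and mm10 and GRCm38 are the genome builds, per the submitters' processing notes. Which program and annotation counted them, whether strand was used and how reads matching more than one place were treated is unknown from the sources used here.

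Groups were taken from the library titles. Counts were scaled with TMM factors (edgeR 4.0.16, R 4.3.3) and expressed as CPM. Each ratio has an exact 95% Clopper-Pearson interval for the share of its counts in db/db, and intervals of paired genes are those of the conditional odds ratio (scipy 1.17.1 in Python 3.11.15, with pandas 2.3.3 and numpy 2.4.6). Polymerase chain reaction copies are not independent molecules, so intervals and floors (3 counts) cover counting error only. After scaling, 1 count was 0.0516 CPM in db/db and 0.0653 CPM in db/m. A gene was compared at a mean unscaled CPM of at least 1 and called at 2-fold with an interval excluding 1. Ratios were computed for the whole table, and the scripts were tested on simulated data. Counts were not divided by transcript length, so levels of different genes are not compared.

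The members, lists, motifs and rules were chosen with earlier results of these data known. Any member could be named, and values were given for the 5 highest and 5 lowest by the interval bound nearest to 1, core subunits, paralog isoforms and, at most 5 a list, listed genes past 2-fold. Outside the assembly and regulator lists, counts and sums stand in for some of these genes. Genes named beside these, among them neighbours and members near a limit, were chosen after their values were seen. Alternatives were total counts, DESeq2 1.42.0 size factors, total counts without acinar and hormone genes, other filters and folds, sums without the top member and sets without assembly factors. Positions and promoters come from RefSeq GRCm38.p6, matched by symbol for 93 members and by synonym for 3. One member is counted in sums and counts but not reported singly here. Figures were drawn with matplotlib 3.10.9.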

Additional observations from a re-analysis of the deposited data

How the results depend on the processing

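With total counts the median log2 ratio of the members was 0.15, 2 members were called higher, and the summed ratio of all members was 1.14, with 1.12 for complex I, 1.2 for II, 1.12 for III, 1.15 for IV and 1.15 for V, all with intervals above 1. With total counts without acinar and hormone genes the median was 0.06, 2 were called higher, and the sums were 1.07 for all members, 1.04 for complex I, 1.13 for II, 1.05 for III, 1.07 for IV and 1.08 for V, of which complex III had an interval that includes 1. In both cases the added call was Ndufc1, and the second scaling gave 23 intervals above 1 and 10 below. These shifts follow from the scaling itself, which moved the median of all genes to 0.20 and 0.10. DESeq2 size factors moved no count by over 1.5 times and no sum beyond its interval. Without the filter on low counts 2 members were called higher (Ndufb4 and Ndufb6), and at 10 CPM 0 were and the median was 0.04, because Ndufb6 is below that limit. At 1.5-fold 3 were called higher and 5 lower, and by the interval alone 17 and 17. Without the member with most counts, Uqcrc2, the sum of complex III was 0.933. Leaving out assembly factors moved no count by over 1.5 times and no sum beyond its interval, and the median stayed at -0.02. No paired analysis was possible because there is 1 library per group, and no library could be left out. Depth limits members under 100 counts, whose intervals span well over 1.5-fold.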

Other observations

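Divergent neighbours of members gave a further view of these promoters. Esf1, a nucleolar protein gene that starts 88 bases from the complex I assembly factor gene Ndufaf5, had 169 counts in db/db and 100 in db/m (1.34, 1.04 to 1.73), while Ndufaf5 itself had 13 counts in db/db and 12 in db/m. Vmac, which starts 63 bases from Ndufa11, had 264 counts in db/db and 164 in db/m (1.27, 1.04 to 1.56), and Ndufa11 stood at 0.855 (0.614 to 1.19). Fam126b, which starts 64 bases from Ndufb3, had 199 counts in db/db and 232 in db/m (0.678, 0.558 to 0.823), and Ndufb3 stood at 1.33 (0.764 to 2.37). Ndufb5 starts 308 bases from Mrpl47, a mitochondrial ribosomal protein gene, and both had intervals that include 1, at 1.1 (0.918 to 1.32) for Ndufb5 and 1.09 (0.674 to 1.77) for Mrpl47. These pairs were chosen after their values were seen.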
